A study of Mus musculus with 9 samples.

Results

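Sodium uptake by epithelial cells is set by a chain of kinases and ubiquitin enzymes that act on the channels and transporters in the cell membrane. This chain was followed through 7 genes: Sgk1, Nedd4l, Usp2, Wnk1, Wnk4, Stk39 and Pik3r1. The genes were chosen by symbol, with earlier results of these data known. Every probe set that the platform annotation gave to 1 of these symbols was taken, which came to 20 of the 45101 probe sets on the array. A signal of 200 was reached on 3 or more of the 9 arrays by 15 of the 20, which were tested among 18913 probe sets in all. The other 5, all under 200 on every array, are 1423270_at and 1456044_at (Nedd4l), 1437888_at (Wnk1), and 1425515_at and 1451737_at (Pik3r1).

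RNA came from Reissner's membrane of adult mice, the thin sheet between the scala media and the scala vestibuli of the cochlea, and was measured on 9 Affymetrix arrays in 3 groups of 3. The fresh group (0 h) was extracted straight after dissection, the incubated group was kept as explants for 24 h without dexamethasone, and the dexamethasone group was kept for 24 h with dexamethasone, a synthetic glucocorticoid, at 100 nM. That dose stands in the design text and on the label of array A, while for dexamethasone arrays B and C the label writes the same figure with the unit mM. The sources used here give no strain, sex or genetic change of the mice. Dissected membranes were pooled to obtain enough RNA, and the design text assigns 3 chips to each biological sample. The p-values below therefore rest on the spread from array to array, which may be technical, and say nothing of the spread between animals.

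The kinase Sgk1 is activated downstream of PI3-kinase, whose regulatory subunit p85-alpha is encoded by Pik3r1. Sgk1 phosphorylates the ubiquitin ligase Nedd4-2, the product of Nedd4l, which otherwise marks the epithelial sodium channel ENaC for removal from the apical membrane, and the ubiquitin protease Usp2 can take ubiquitin off the channel again. The WNK kinases Wnk1 and Wnk4 act through SPAK, the product of Stk39, on sodium-chloride cotransporters, and also modulate ENaC. Corticosteroids raise sodium absorption in several epithelia, and in these tissues Sgk1 and Usp2 are textbook steroid-induced genes.

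Each value is a deposited signal, a linear intensity that the authors scaled so that the trimmed mean over all probe sets is 500 on every array. Changes are differences of group means of log2(signal + 32), given with their standard error, and a change was called at a Benjamini-Hochberg adjusted p under 0.05 from limma, adjusted over all 18913 probe sets. Arrays of 1 group correlated at 0.992 to 0.993 over tested probe sets and arrays of different groups at 0.814 to 0.959, and no pair of arrays held identical values. The scaling fixes the overall brightness of each array. Rescaling the arrays instead on 18 probe sets for hybridization controls, RNAs added to every hybridization, moved the median change of all tested probe sets to 0.28 for incubated against fresh, to -0.39 for dexamethasone against incubated and to -0.074 for dexamethasone against fresh, from -0.050, 0.0071 and -0.0054. Where a member's direction turns under that rescaling, this is said beside it.

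The fresh tissue carried the epithelial markers of the membrane together with markers of neighbouring cochlear tissue. All 10 epithelial markers on the array had means over 200 in every group, and Otx2, a transcription factor of this epithelium, had a signal of 8350 ± 175 (SD, n = 3) in fresh tissue, 4527 ± 82.4 after incubation and 2892 ± 127 with dexamethasone, called lower at each step (-0.88 and -0.64, adjusted p = 2.59e-09 and 3.52e-07). The summed epithelial signal was 40835 to 42201 in fresh, 80696 to 83308 in incubated and 89443 to 93635 in dexamethasone arrays, opposite in direction to Otx2, and the keratin gene Krt18 within it went from 5329 ± 214 in fresh to 17608 ± 800.1 in incubated arrays. For 8 markers of spiral ligament and limbus fibrocytes it was 62724 to 64781, 4801 to 5154 and 4889 to 5069, and for 10 neuronal markers 24185 to 25251, 556 to 601 and 415 to 486. The 8 strial markers summed to 25026 to 26178, 4845 to 5020 and 4545 to 4736, with Kcnq1 among them, and the 7 hair and supporting cell markers to 10205 to 10330, 763 to 885 and 1322 to 1329. Mesothelium and fibroblasts (12 markers) summed to 29690 to 31031, 14261 to 15781 and 15200 to 16010. Macrophages and other leukocytes (12 markers) summed to 18656 to 19553, 9355 to 9690 and 7713 to 7825. Schwann cells (5 markers) summed to 11384 to 11675, 8219 to 10170 and 11329 to 12217, and endothelium and blood (6 markers) to 3269 to 3600, 641 to 747 and 777 to 1012. Of 8 tested mesothelium and fibroblast markers 2 were called higher and 5 lower on incubation. Over all 10242 genes tested, at 1 probe set each, 36% were higher and 40.7% lower. Dcn fell from 20348 to 7456, while Msln, under 200 on all fresh arrays, rose to 1203. Of 9 tested leukocyte markers 4 were higher and 4 lower, beside the same shares of all genes. S100a8 and S100a9 fell from 6578 and 5708 to 1592 and 817, while Cd68, under 200 on all fresh arrays, rose to 1647. In incubated arrays 9 of the 10 neuronal markers and 3 of the 8 fibrocyte markers had means under 200. The sums for adjoining tissue, mesothelium and fibroblasts, leukocytes, and blood and endothelium thus moved with incubation in the same direction as most members. Within the mesothelium and fibroblast list and the leukocyte list, markers went both ways. The part of any of these lists in the falls on incubation was not tested. Between the incubated and the dexamethasone arrays the fibrocyte sums and the mesothelium and fibroblast sums overlapped and the 7 others did not. The overlap of the fibrocyte sums held opposite changes, with 4 of the 8 markers called higher and 3 lower, beside 22.3% and 28.7% of all genes. Among these markers were Pou3f4 at 1.41 and Car3 at -1.10. Among those called higher, Otor was under 200 on all arrays of both groups, and Coch and Otos on all incubated arrays. Among those called lower, Aqp1 was under 200 on all dexamethasone arrays. The part of any of these cell types in the changes with dexamethasone was not tested. As these are whole pooled membranes, fewer cells of a type and less RNA per cell cannot be told apart.

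On incubation most of the 15 member probe sets were lower, and with dexamethasone most were higher than in incubated tissue. Incubated against fresh, 2 were called higher and 11 lower, beside 35% and 40.1% of all tested probe sets, and their median change was -0.74 against -0.050 for all. Dexamethasone against incubated, 9 were called higher and 3 lower, beside 27.1% and 25.5% of all, with a median of 0.22 against 0.0071. Dexamethasone against fresh, which shares arrays with both other comparisons, 2 were higher and 10 lower, beside 37.8% and 38.4%, with a median of -0.65 against -0.0054. Probe sets of 1 gene are not independent, and the members were chosen with earlier results of these data known. The counts and medians are therefore a description. The lower counts against fresh include Stk39 1431434_at, which reached 200 on fresh arrays alone. They also include Nedd4l 1437400_at, which did so on the fresh arrays and incubated array B. The filter favoured the falls of both against fresh. Under the hybridization-control scaling 5 were higher and 9 lower on incubation, beside 10078 and 4454 of all 18913 tested probe sets. Dexamethasone against incubated the split was 4 higher and 8 lower, beside 1643 and 12604 of all. Dexamethasone against fresh it was 2 higher and 11 lower, beside 6383 and 7870. Quantile normalization gave 7 higher and 4 lower for dexamethasone against incubated, beside 4527 and 5113 of all.

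**Figure D1:**
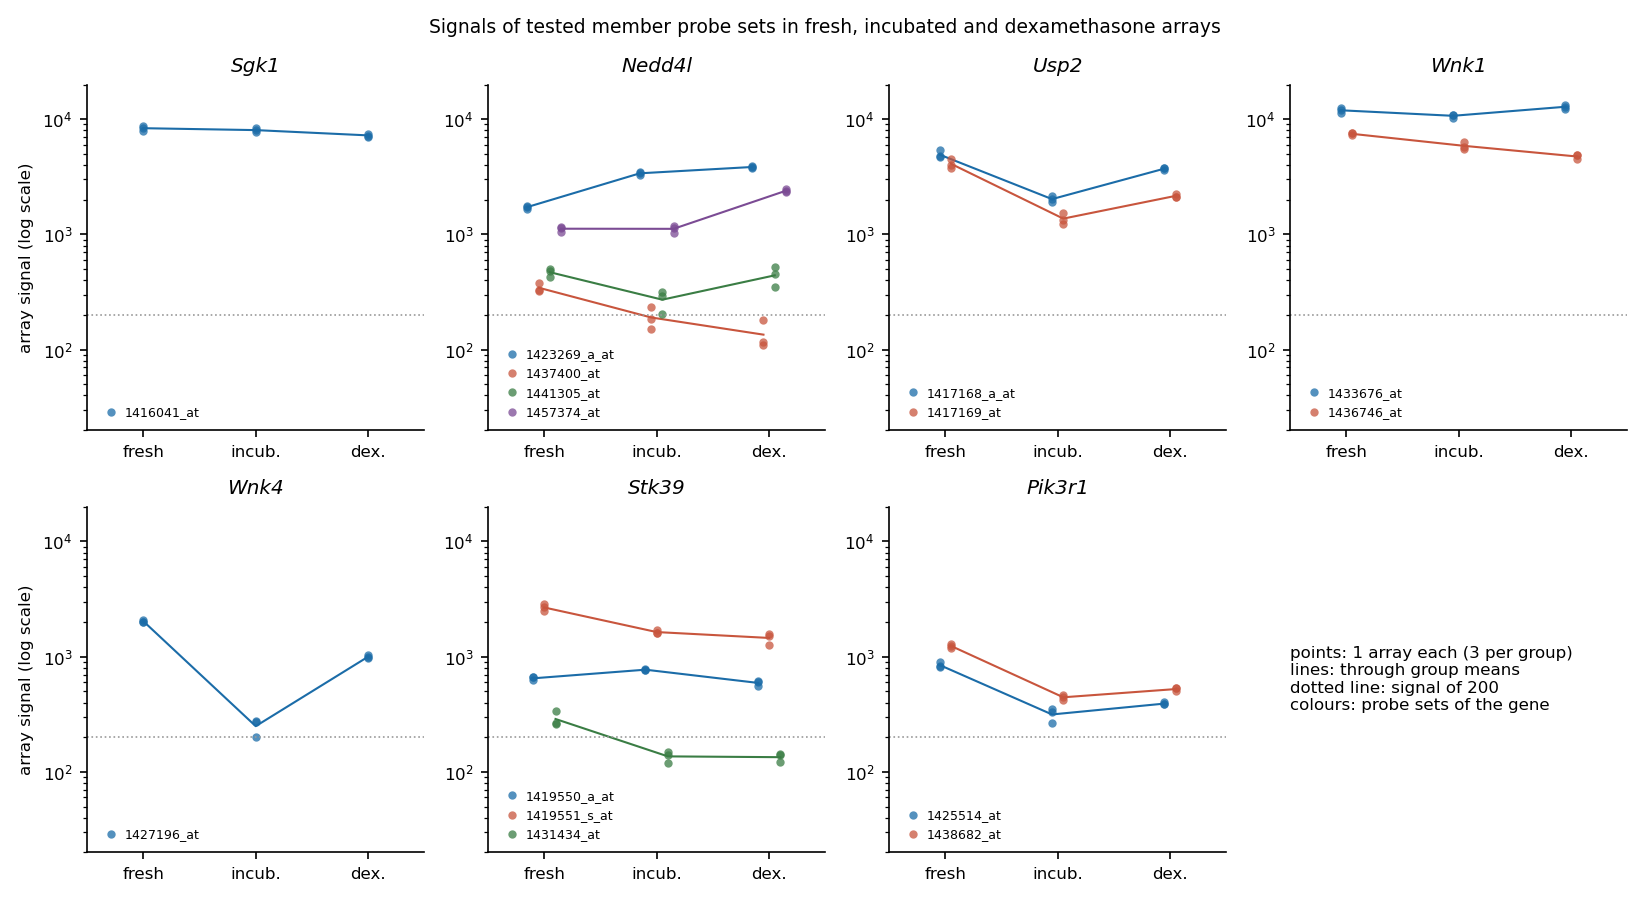
Signal of each tested member probe set on each array (log axis, arbitrary units), with 1 panel per gene, 1 point per array, lines through the group means and a dotted line at 200. Wnk4 falls from 2032 in fresh to 249 in incubated arrays and stands at 999 with dexamethasone, Sgk1 stays between 7072 and 8772 on all arrays, and the Nedd4l probe sets take different courses.

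Sgk1, the kinase that links hormone signals to the channel, was at a high signal in all 3 groups and moved little. Its single probe set, 1416041_at, read 8772, 8459.8 and 7823 on fresh, 8399.9, 7998 and 7719.8 on incubated and 7190.3, 7072 and 7440.1 on dexamethasone arrays. The group means were 8352 ± 483 (SD, n = 3), 8039 ± 342 (SD, n = 3) and 7234 ± 188 (SD, n = 3). Fresh and incubated arrays overlapped, and all 3 dexamethasone arrays lay below them. Incubated against fresh the change was -0.054 ± 0.052 (95% interval -0.17 to 0.059, adjusted p = 0.362), which was not called. It passed as lower, at -0.18, with quantile normalization (adjusted p = 0.00764). Under the hybridization-control scaling it turned to 0.29 and was called higher (adjusted p = 3.35e-04). Dexamethasone against incubated it fell by 0.15 ± 0.052 (adjusted p = 0.0280), to 0.900 of the incubated signal, and against fresh by 0.21 ± 0.052 (adjusted p = 0.00309). The fall against incubated tissue was lost with no low-signal filter (adjusted p = 0.0611), without the intensity trend (0.0738), and on leaving out incubated array A (0.106), dexamethasone array A (0.0689) or dexamethasone array B (0.0797).

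The promoter window of Sgk1 is shown because it holds a full palindromic glucocorticoid response element, while the Sgk1 signal was not higher with the steroid. Windows of 300 bases, 250 before and 50 from an annotated start, were taken from RefSeq on build GRCm38.p6 for 6 of the 7 genes, 12 windows in all. They were searched on both strands for the element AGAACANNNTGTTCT, its single arm AGAACA, which on opposite strands forms both ends of the element, and the E-box CACGTG. The full element was found in 3 of 32851 windows (0.00913%), upstream of Sgk1, Acnat2 and Gm35041, the last pair named after the search. A single arm was in 19% of windows and the E-box in 7.15%. In the lines below the capitals mark the full element, and the Wnk4 and Usp2 windows, from the members with the largest rises beside Nedd4l, hold none of the 3 motifs.
Sgk1 promoter, GRCm38.p6 chr10:21993640-21993939, plus strand: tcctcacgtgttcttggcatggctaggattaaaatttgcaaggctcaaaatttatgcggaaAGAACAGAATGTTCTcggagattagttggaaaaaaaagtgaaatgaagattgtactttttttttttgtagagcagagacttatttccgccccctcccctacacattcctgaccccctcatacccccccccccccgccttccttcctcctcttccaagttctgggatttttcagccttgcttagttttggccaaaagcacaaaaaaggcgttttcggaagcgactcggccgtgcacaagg
Wnk4 promoter, GRCm38.p6 chr11:101260317-101260616, plus strand: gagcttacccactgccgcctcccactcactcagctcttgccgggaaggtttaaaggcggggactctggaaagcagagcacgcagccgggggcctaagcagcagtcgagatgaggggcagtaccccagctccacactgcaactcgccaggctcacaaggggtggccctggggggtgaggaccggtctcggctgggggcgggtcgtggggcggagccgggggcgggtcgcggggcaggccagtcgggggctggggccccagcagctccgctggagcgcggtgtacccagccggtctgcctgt
Usp2 promoter, GRCm38.p6 chr9:44084670-44084969, plus strand: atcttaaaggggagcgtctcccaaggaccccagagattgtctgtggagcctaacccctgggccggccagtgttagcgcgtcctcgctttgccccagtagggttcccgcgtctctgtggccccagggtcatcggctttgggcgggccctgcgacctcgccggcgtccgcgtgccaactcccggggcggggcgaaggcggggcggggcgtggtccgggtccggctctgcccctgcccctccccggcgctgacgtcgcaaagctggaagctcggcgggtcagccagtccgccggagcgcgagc

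The element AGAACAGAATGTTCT lies at chr10:21993701-21993715, beginning 189 bases before the start that defines this window, which is 1 of 6 annotated Sgk1 starts. The same window holds another single arm, TGTTCT on the printed strand, 242 bases before the start, and an E-box at 246 bases before it that overlaps that arm. Single arms stand 195 and 13 bases before the starts of 2 other Sgk1 windows. None of the 3 motifs was found in the windows of Wnk1, Stk39 or Pik3r1. A match describes letters in a window and no binding was measured here, and the absence of a match covers these letters and this window only.

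Pik3r1, the p85-alpha subunit of PI3-kinase upstream of Sgk1, fell on incubation at both tested probe sets. Probe set 1438682_at read 1296, 1247 and 1179 on fresh, 466, 445 and 421 on incubated and 499, 538 and 532 on dexamethasone arrays. Probe set 1425514_at read 899, 833 and 806 in the fresh group, 331, 348 and 266 after incubation and 386, 400.5 and 388 with dexamethasone. At both, the fresh arrays were the highest and every dexamethasone array lay above every incubated one. On incubation 1438682_at changed by -1.42 ± 0.071 (adjusted p = 1.77e-09) and 1425514_at by -1.35 ± 0.10 (adjusted p = 5.15e-08), and the difference between the pair was -0.073 ± 0.094 (95% interval -0.28 to 0.14).

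With dexamethasone the Pik3r1 signals were slightly higher than in incubated tissue and far from those of fresh tissue. The changes against incubated were 0.22 ± 0.071 (adjusted p = 0.0193) for 1438682_at and 0.29 ± 0.10 (adjusted p = 0.0222) for 1425514_at. Both turned under the hybridization-control scaling, to -0.17 and -0.092, neither called (adjusted p = 0.0589 and 0.402). Both lost the call with quantile normalization (adjusted p = 0.0542 and 0.0898). They also lost it on leaving out incubated array C (0.0657 and 0.0896) or dexamethasone array B (0.0605 and 0.0593). The call of 1438682_at was also lost without dexamethasone array C (0.0517). Against fresh, both were lower, with changes of -1.20 ± 0.071 and -1.05 ± 0.10 (adjusted p = 7.36e-09 and 4.98e-07). The target of 1425514_at is shared in the array design with the untested 1425515_at and 1451737_at, whose signals were 5.50 to 48.3 and 11.2 to 75.9 over the 9 arrays.

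Nedd4l, the ubiquitin ligase that removes ENaC from the membrane, gave 4 tested probe sets that followed different courses, each pair of them differing past the test in at least 1 of the comparisons below. The annotation does not tie them to transcript forms, and 1423269_a_at shares its design target with the untested 1423270_at, as 1437400_at does with the untested 1456044_at. Those untested probe sets read 27.7 to 70.1 and 42.0 to 95.1 over the 9 arrays.

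Probe set 1423269_a_at rose on incubation. It read 1745, 1776 and 1665 on fresh, 3446, 3429 and 3296 on incubated and 3751, 3836 and 3955 on dexamethasone arrays, with no overlap between any groups. It rose by 0.96 ± 0.047 on incubation (adjusted p = 1.56e-09), 1.96-fold, and 8.33% of tested probe sets rose more. With dexamethasone it was higher than in incubated tissue by 0.18 ± 0.047 (adjusted p = 0.00657). Under the hybridization-control scaling that change was -0.24 and called lower (adjusted p = 0.00187). Dexamethasone against fresh it rose by 1.14 ± 0.047 (adjusted p = 2.68e-10).

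Probe set 1457374_at did not pass the test on incubation and rose with dexamethasone. Its signals were 1164, 1056 and 1141 on fresh and 1183, 1136 and 1034 on incubated arrays, which overlapped, and 2458, 2378 and 2346 on dexamethasone arrays, all far above both. The change on incubation was -0.0043 ± 0.063 (95% interval -0.14 to 0.13, adjusted p = 0.954). Under the hybridization-control scaling it was 0.33 and called higher (adjusted p = 1.98e-04). With dexamethasone it rose by 1.08 ± 0.063 over incubated tissue (adjusted p = 6.78e-08), 2.14-fold, and 2.46% of tested probe sets rose more. Against fresh it rose by 1.07 ± 0.063 (adjusted p = 6.34e-09).

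Probe set 1441305_at fell on incubation and with dexamethasone stood near its fresh signal. It read 501, 424 and 485 on fresh, 203, 295 and 316 on incubated and 454, 518 and 351 on dexamethasone arrays, so that fresh and dexamethasone arrays overlapped and the incubated arrays lay below both. It changed by -0.74 ± 0.16 on incubation (adjusted p = 8.82e-04) and by 0.65 ± 0.16 with dexamethasone (adjusted p = 0.00429). The latter change was 0.26 and not called under the hybridization-control scaling (adjusted p = 0.151). Against fresh the difference was -0.10 ± 0.16 (95% interval -0.44 to 0.25).

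Probe set 1437400_at fell on incubation and was lowest with dexamethasone. Its signals were 327, 382 and 324 on fresh, 152, 236 and 183 on incubated and 116, 179 and 109 on dexamethasone arrays, with the incubated and dexamethasone arrays overlapping and the fresh arrays above both. It fell on incubation by 0.78 ± 0.17 (adjusted p = 0.00123). With dexamethasone the change from incubated was -0.42 ± 0.17 (adjusted p = 0.0572), not called, though it was called with quantile normalization (-0.53, adjusted p = 0.0176), median centring (-0.43, 0.0494) and the hybridization-control scaling (-0.77, 0.00147), and on leaving out incubated array A (-0.55, 0.0271) or dexamethasone array B (-0.60, 0.00913). All 3 dexamethasone arrays were under 200, so that against fresh it was at least 1.72-fold lower (adjusted p = 3.36e-05). This probe set reached 200 on the fresh arrays and incubated array B alone. The p-values of its falls against fresh, on incubation and with dexamethasone, therefore do not test them independently of the filter.

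**Figure D2:**
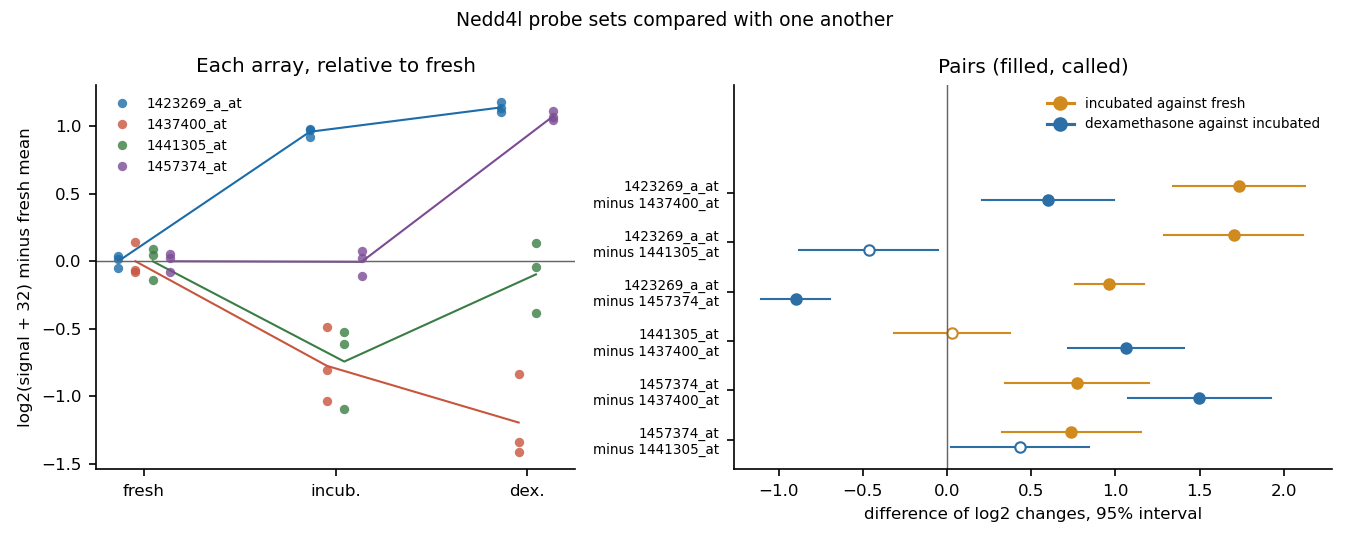
Left, log2(signal + 32) of the 4 tested Nedd4l probe sets on each array minus the mean of the fresh arrays, with lines through group means; right, the difference between the changes of each pair of probe sets with its 95% interval, filled where called after adjustment over all pairs. Probe set 1423269_a_at is up by 0.96 after incubation while 1437400_at and 1441305_at are down by 0.78 and 0.74, and with dexamethasone 1457374_at rises by 1.08 while 1437400_at stays down.

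To compare the Nedd4l probe sets with one another, the log2 difference between 2 probe sets on the same array was tested between groups, for every pair of tested probe sets of 1 gene. This made 9803 pairs over 4065 genes, and a scaling that multiplies a whole array nearly cancels in such a difference. Of the 6 Nedd4l pairs, 5 changed by different amounts on incubation, beside 49.4% of all pairs. Dexamethasone against incubated 4 of 6 did, beside 36.1%, and dexamethasone against fresh 5 of 6, beside 53.9%. The 6 pairs come from 4 probe sets and are not independent of one another. Against fresh, pairs with 1437400_at carry its fall, which the filter favoured.

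On incubation 1423269_a_at stood apart from the others. It rose relative to 1437400_at by 1.73 ± 0.18 (adjusted p = 2.23e-05), to 1441305_at by 1.70 ± 0.19 (adjusted p = 3.56e-05) and to 1457374_at by 0.96 ± 0.093 (adjusted p = 1.56e-05). Probe set 1457374_at rose relative to 1437400_at by 0.77 ± 0.19 and to 1441305_at by 0.74 ± 0.18 (adjusted p = 0.00695 and 0.00722). The remaining pair, 1441305_at against 1437400_at, differed by 0.032 ± 0.15, with an interval of -0.31 to 0.38, and was not called. The p-values of pairs with 1437400_at do not test its fall on incubation independently of the filter.

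With dexamethasone the order changed. Relative to incubated tissue, 1457374_at rose by 1.50 ± 0.19 more than 1437400_at (adjusted p = 2.87e-04), and 1423269_a_at changed by -0.90 ± 0.093 relative to 1457374_at (adjusted p = 1.08e-04). Probe set 1441305_at, whose fall on incubation did not differ past the test from that of 1437400_at, rose by 1.07 ± 0.15 relative to it (adjusted p = 5.98e-04). The fourth called pair, 1423269_a_at over 1437400_at at 0.60 ± 0.18 (adjusted p = 0.0226), lost its call with no low-signal filter (0.0767) and on leaving out incubated array B (0.0798), incubated array C (0.0560), dexamethasone array A (0.0724) or dexamethasone array C (0.0781). The pairs of 1441305_at with 1423269_a_at, at -0.47 ± 0.19, and with 1457374_at, at 0.43 ± 0.18 in favour of the latter, were not called (adjusted p = 0.0759 and 0.0935). The first became called without incubated array C (-0.60, adjusted p = 0.0467) or dexamethasone array C (-0.63, 0.0263), and the second with a pseudocount of 100 (0.49, 0.0259) or without incubated array A (0.65, 0.0111). Leaving out 1 array at a time, 3 to 5 of the 6 pairs were called.

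Dexamethasone against fresh, 1423269_a_at and 1457374_at rose by amounts that differed by 0.066 ± 0.093 (95% interval -0.14 to 0.27, adjusted p = 0.577), the single uncalled pair. These 2 probe sets reached that position by different steps, the first mostly on incubation and the second with dexamethasone. Genes called in both directions were common on this array. Of 345 genes with 4 tested probe sets, 29% had at least 1 probe set called higher and 1 called lower on incubation, 24.9% with dexamethasone against incubated and 29.9% against fresh. Nedd4l was among them on incubation and against fresh, and was not for dexamethasone against incubated, where its 3 called probe sets were all higher.

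Usp2, the protease that can take ubiquitin off the channel, fell on incubation and rose part of the way back with dexamethasone at both of its probe sets. Probe set 1417168_a_at read 4756, 4660.5 and 5352 on fresh, 2028, 1909.6 and 2136 on incubated and 3785, 3648 and 3739.6 on dexamethasone arrays. Probe set 1417169_at read 4007, 3759 and 4548 in the fresh group, 1239, 1339 and 1536 after incubation and 2103, 2245 and 2133 with dexamethasone. Neither overlapped between any groups, and the order was fresh, then dexamethasone, then incubated.

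On incubation the Usp2 changes were -1.27 ± 0.060 (adjusted p = 1.11e-09) at 1417168_a_at and -1.56 ± 0.082 (adjusted p = 2.70e-09) at 1417169_at, to 41.1% and 33.4% of the fresh signal. Dexamethasone raised them over incubated tissue by 0.87 ± 0.060 and 0.65 ± 0.082 (adjusted p = 2.66e-07 and 3.54e-05), 1.84-fold and 1.58-fold, and the probe sets then stood at 75.7% and 52.6% of fresh. Against fresh they were lower, with changes of -0.40 ± 0.060 and -0.91 ± 0.082 (adjusted p = 5.36e-05 and 3.91e-07). The pair shares a design target, yet 1417169_at fell more on incubation, by a difference of 0.29 ± 0.094 (adjusted p = 0.0250), and lay further below fresh with dexamethasone, by 0.52 ± 0.094 (adjusted p = 0.00108). Their rises with dexamethasone over incubated differed by 0.22 ± 0.094 (95% interval 0.012 to 0.43, adjusted p = 0.0929).

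Wnk4, a WNK kinase known from distal nephron salt handling, changed the most of the members on incubation and with dexamethasone against incubated. Its probe set, 1427196_at, read 1993, 2087 and 2016 on fresh, 272, 276 and 200.5 on incubated and 1039, 972 and 986 on dexamethasone arrays. The group means were 2032 ± 49.0 (SD, n = 3), 249 ± 42.3 (SD, n = 3) and 999 ± 35.2 (SD, n = 3). The 3 groups were far apart, with incubated arrays at or little above the 200 floor. On incubation it fell by 2.89 ± 0.096 (adjusted p = 4.22e-11), to 12.3% of fresh, and 1.45% of tested probe sets fell more. Dexamethasone raised it over incubated tissue by 1.88 ± 0.10 (adjusted p = 2.17e-08), 4.01-fold, and only 31 of the 18913 tested probe sets (0.164%) rose more. It then stood at 49.2% of fresh, a change of -1.002 ± 0.096 (adjusted p = 7.31e-07). No scaling turned these directions.

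**Figure D3:**
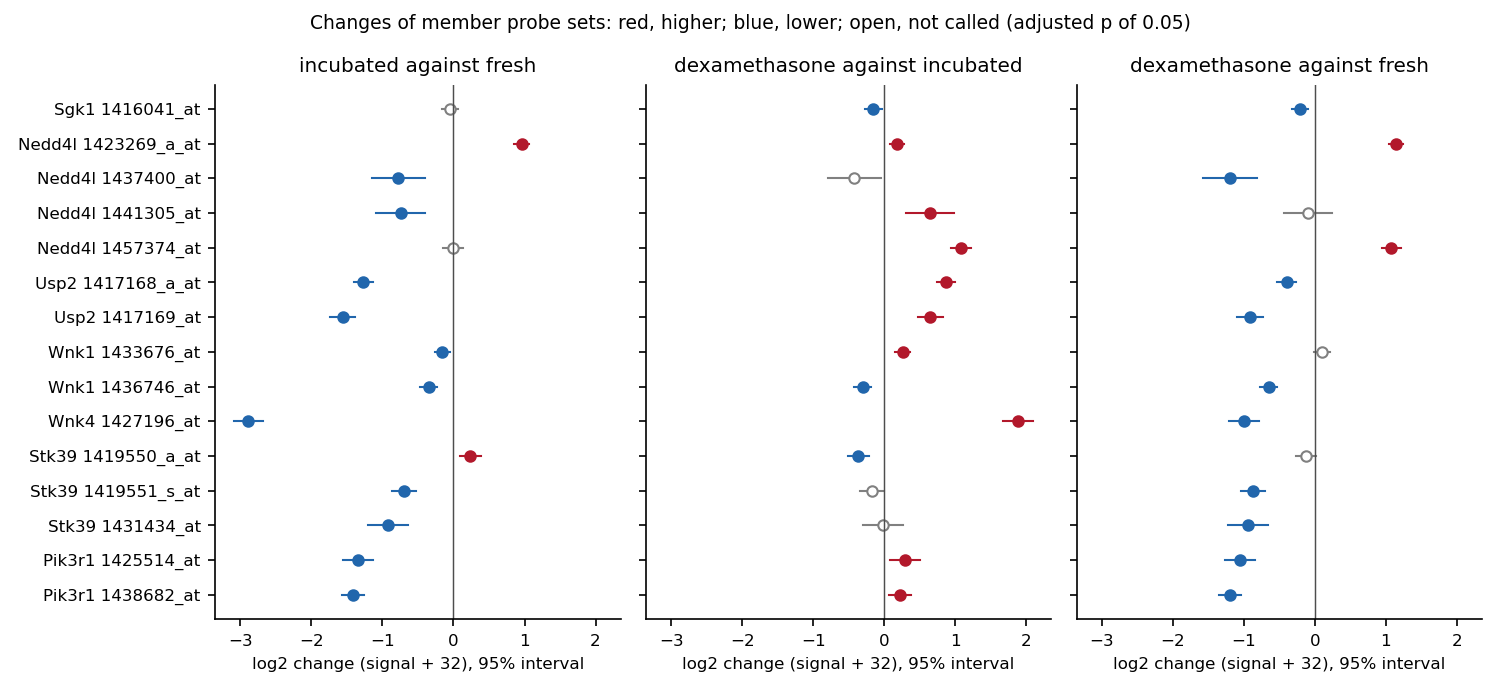
Change of log2(signal + 32) of each tested member probe set with its 95% interval in the 3 comparisons, red where called higher, blue where called lower and open where not called. Wnk4 has the largest fall on incubation (-2.89) and the largest rise with dexamethasone (1.88), and the Usp2 and Pik3r1 probe sets also fall on incubation.

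Wnk1, the broadly expressed WNK kinase, gave 2 tested probe sets that parted with dexamethasone. Probe set 1433676_at read 11992, 12506 and 11346 on fresh, 10928, 10887 and 10280.4 on incubated and 12340.4, 13306 and 12813 on dexamethasone arrays. Probe set 1436746_at read 7317, 7540.5 and 7541 in the fresh group, 6342, 5754 and 5509 after incubation and 4516, 4853 and 4872 with dexamethasone. The first was lowest in incubated arrays, with fresh and dexamethasone overlapping, while the second was lowest with dexamethasone and overlapped in no comparison.

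On incubation 1433676_at fell by 0.16 ± 0.050 (adjusted p = 0.0118) and 1436746_at by 0.35 ± 0.056 (adjusted p = 8.67e-05). Under the hybridization-control scaling the first turned to 0.19, called higher (adjusted p = 0.0125), and the second was at -0.0016, not called (0.984). The call of 1433676_at was also lost with median centring (adjusted p = 0.0659) and without fresh array B (0.0633) or incubated array C (0.0548). With dexamethasone against incubated, 1433676_at changed by 0.26 ± 0.050 (adjusted p = 8.70e-04). It turned to -0.16 under the hybridization-control scaling, called lower (adjusted p = 0.0291). Probe set 1436746_at changed by -0.30 ± 0.056 (adjusted p = 6.28e-04). The difference between the 2 probe sets, in which an array-wide factor nearly cancels, was 0.56 ± 0.087 (adjusted p = 8.29e-04), against 0.19 ± 0.087 on incubation, which was not called (adjusted p = 0.0947). Dexamethasone against fresh it was 0.75 ± 0.087 (adjusted p = 5.20e-05), with 1433676_at at 0.10 ± 0.050 (adjusted p = 0.0806, called with median centring at 0.0199 and without fresh array B at 0.0459) and 1436746_at at -0.65 ± 0.056 (adjusted p = 2.38e-07). Averaged over both probe sets, Wnk1 showed a change of -0.021 ± 0.046 with dexamethasone against incubated (adjusted p = 0.723). The third probe set, 1437888_at, read 10.5 to 86.8 over the 9 arrays.

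Stk39, which encodes SPAK, the kinase that WNK kinases activate, fell on incubation at 2 of its 3 probe sets and rose at the third. The fall at 1431434_at was favoured by the filter, since that probe set reached 200 on fresh arrays alone. Probe set 1419551_s_at read 2484, 2692 and 2839 on fresh, 1601, 1592 and 1711 on incubated and 1510.1, 1274 and 1576 on dexamethasone arrays. Probe set 1419550_a_at read 659.5, 622 and 664 in the fresh group, 785, 760.1 and 767 after incubation and 561, 604 and 612 with dexamethasone. The first was highest in fresh arrays and the second in incubated arrays, although both share a design target, and the suffix of the first marks probes that may also match other transcripts.

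On incubation 1419551_s_at changed by -0.70 ± 0.078 (adjusted p = 3.47e-06) and 1419550_a_at by 0.24 ± 0.067 (adjusted p = 0.00582), a difference of -0.94 ± 0.11 (adjusted p = 6.40e-05). Probe set 1431434_at read 337, 259.5 and 266 on fresh arrays and 120.5 to 149 on the 6 others. It was thus at least 1.44-fold lower both on incubation and with dexamethasone against fresh (adjusted p = 3.00e-05 and 2.40e-05). As it passed the filter through the fresh arrays alone, these p-values do not test its fall independently of the filter. With dexamethasone against incubated, 1419550_a_at fell by 0.36 ± 0.067 (adjusted p = 6.21e-04). The change of 1419551_s_at was -0.17 ± 0.078 (adjusted p = 0.0831), not called, but called without dexamethasone array C (-0.23, adjusted p = 0.0342) and under the hybridization-control scaling (-0.59, 1.57e-05). Against fresh, 1419551_s_at was lower, at -0.87 ± 0.078 (adjusted p = 3.90e-07), and 1419550_a_at was at -0.13 ± 0.067 (adjusted p = 0.105), called under the hybridization-control scaling (-0.19, 0.0271).

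**Figure D4:**
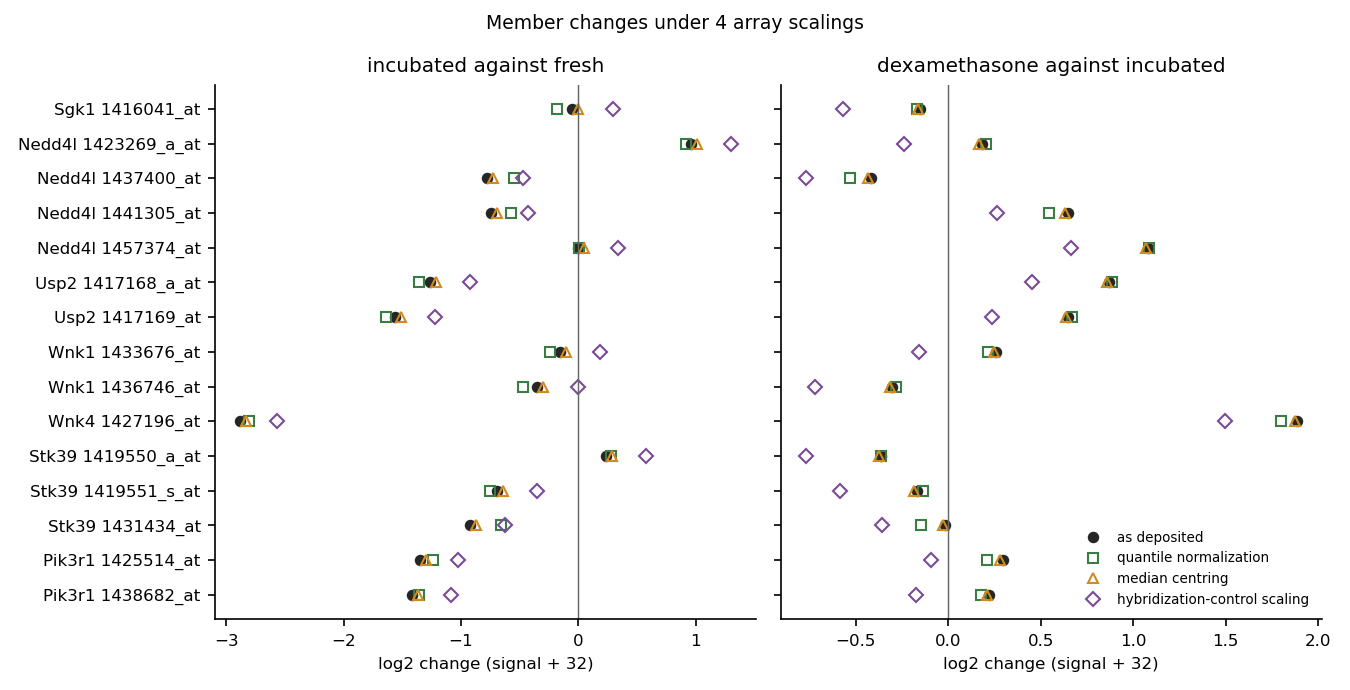
Change of each tested member probe set on incubation (left) and with dexamethasone against incubated tissue (right) under 4 scalings of the arrays: as deposited, quantile normalization, median centring and scaling on hybridization controls. The last moves every point to the right on incubation and to the left with dexamethasone, which turns the small changes of Sgk1, Wnk1, Pik3r1 and 2 Nedd4l probe sets and leaves Wnk4 at the far end of both panels.

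The wider pathway was read from 6 lists of genes around the members, with 1 probe set per gene, the tested one with the highest mean. Over all 10242 genes so represented, 36% were called higher and 40.7% lower on incubation (median -0.039), and 22.3% higher and 28.7% lower with dexamethasone against incubated (median -0.030). The 7 members counted this way gave 1 higher and 5 lower on incubation and 5 higher and 1 lower with dexamethasone. With the tested probe sets of each gene averaged instead, Nedd4l was not called on incubation (-0.14 ± 0.078, adjusted p = 0.115). With dexamethasone against incubated, Wnk1 was then not called (-0.021, adjusted p = 0.723) and Stk39 was called lower (-0.18 ± 0.058, adjusted p = 0.0185). Under the hybridization-control scaling the 7 members gave 3 higher and 4 lower on incubation, and 2 higher, Usp2 and Wnk4, and 4 lower with dexamethasone. That scaling called 10078 of all 18913 tested probe sets higher and 4454 lower on incubation. With dexamethasone against incubated it called 1643 higher and 12604 lower. The list counts under it given below are to be read beside these. The lists were drawn up with earlier results of these data known, so their counts are a description.

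Of 26 tested genes of PI3-kinase and SGK signalling, 3 were higher and 15 lower on incubation (median -0.33). The insulin receptor substrate gene Irs1 fell by 1.13 ± 0.054 (adjusted p = 1.12e-09), the transcription factor gene Foxo1 by 1.08 ± 0.056 (adjusted p = 2.27e-09) and Cnksr3, which encodes a scaffold for the channel's regulators, by 1.01 ± 0.066 (adjusted p = 1.96e-08). The catalytic subunit gene Pik3cb rose by 1.22 ± 0.081 (adjusted p = 2.34e-08). With dexamethasone 8 were higher and 10 lower (median -0.11). Ndrg1, whose protein is a known Sgk1 substrate, rose by 1.06 ± 0.051 (adjusted p = 1.42e-08), while Pik3r3 fell by 0.81 ± 0.062 (adjusted p = 5.62e-07) and Pik3ca by 0.56 ± 0.067 (adjusted p = 2.28e-05). Under the hybridization-control scaling the splits became 8 higher and 6 lower on incubation, and 1 higher and 20 lower with dexamethasone.

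Of 30 tested genes of ubiquitin ligation and its adaptors, 15 were higher and 9 lower on incubation (median 0.17). Arrdc4, an arrestin-like adaptor gene, rose by 1.73 ± 0.068 (adjusted p = 2.07e-10), Ndfip2, an activator of Nedd4-family ligases, by 1.17 ± 0.10 (adjusted p = 2.70e-07) and the ligase gene Smurf1 by 1.08 ± 0.10 (adjusted p = 5.66e-07). With dexamethasone 4 were higher and 7 lower, and 19 were not called (median -0.021). Ube2e3, a ubiquitin-conjugating enzyme that works with Nedd4-2, fell by 0.39 ± 0.048 (adjusted p = 2.68e-05), and Smurf2 rose by 0.25 ± 0.051 (adjusted p = 0.00118). The hybridization-control scaling gave 22 higher and 3 lower on incubation, and 28 lower with dexamethasone and the other 2 not called, so that Smurf2 was not called higher under it.

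Of 16 tested genes around the WNK and SPAK kinases, 5 were higher and 8 lower on incubation (median -0.29). The cotransporter genes Slc12a2 and Slc12a7, which encode NKCC1 and KCC4, fell by 1.75 ± 0.047 and 1.45 ± 0.056 (adjusted p = 5.78e-12 and 1.47e-10), and the kinase gene Wnk2 by 1.59 ± 0.075 (adjusted p = 1.03e-09). Slc12a2 is also in the list of strial markers, whose sums are given above. With dexamethasone 4 were higher and 4 lower (median 0.063). Rell1, whose product binds SPAK-family kinases, rose by 0.59 ± 0.046 (adjusted p = 7.09e-07), and Cab39l, a gene of the scaffold MO25-beta, fell by 0.36 ± 0.056 (adjusted p = 1.94e-04). Under the hybridization-control scaling 6 were higher and 6 lower on incubation, and 1 higher and 10 lower with dexamethasone.

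The targets of the chain, the channel and the sodium pump with their partners, gave 17 tested genes, of which 6 were higher and 10 lower on incubation (median -0.34), and 7 higher and 4 lower with dexamethasone (median 0.11). The channel subunit gene Scnn1a had signals of 1982 ± 136 (fresh), 918 ± 36.3 (incubated) and 2692 ± 132 (dexamethasone) (SD, n = 3 each). It fell by 1.08 ± 0.063 on incubation (adjusted p = 7.24e-09) and rose by 1.52 ± 0.063 with dexamethasone (adjusted p = 4.29e-09). Scnn1g fell by 0.78 ± 0.065 and rose by 0.60 ± 0.065 (adjusted p = 2.26e-07 and 1.07e-05). Scnn1b fell by 1.20 ± 0.066 on incubation (adjusted p = 3.91e-09), and its change with dexamethasone was 0.11 ± 0.066 (adjusted p = 0.180). Under the hybridization-control scaling the list gave 8 higher and 7 lower on incubation, and 2 higher and 11 lower with dexamethasone.

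Of 23 tested corticosteroid receptor and target genes, 6 were higher and 13 lower on incubation (median -0.30), and 18 higher and 3 lower with dexamethasone (median 0.66). Zbtb16, a steroid-induced transcription factor gene, rose by 3.22 ± 0.073 (adjusted p = 2.93e-11) and Fkbp5, a chaperone of the receptor, by 1.99 ± 0.10 (adjusted p = 2.30e-08). The receptor genes fell with dexamethasone, Nr3c1 by 0.20 ± 0.072 and Nr3c2 by 0.53 ± 0.062 (adjusted p = 0.0351 and 1.73e-05). The hybridization-control scaling gave 11 higher and 11 lower on incubation, and 13 higher and 8 lower with dexamethasone. Among 14 tested genes of other kinases that act on the channel, 4 were higher and 6 lower on incubation (median -0.10), and with dexamethasone 5 were higher and the other 9 were not called (median 0.080). Csnk2a1, a catalytic subunit of casein kinase 2, rose by 1.19 ± 0.053 and the AMP-activated kinase gene Prkaa2 by 0.90 ± 0.075 with dexamethasone (adjusted p = 7.89e-09 and 1.19e-06). Under the hybridization-control scaling this list gave 8 higher and 2 lower on incubation, and 2 higher and 10 lower with dexamethasone.

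**Figure D5:**
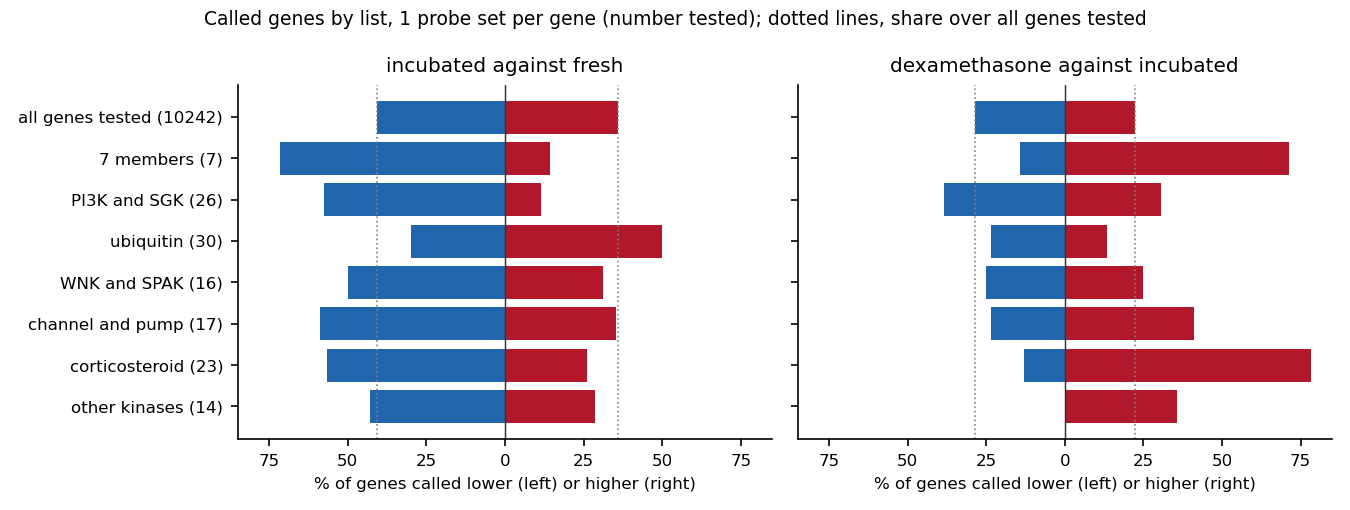
Share of the tested genes of each list called lower (left of 0, blue) or higher (right of 0, red) on incubation and with dexamethasone against incubated tissue, 1 probe set per gene, with the number tested in brackets and dotted lines at the shares over all 10242 genes. The corticosteroid list has 18 of 23 genes higher with dexamethasone beside 22.3% of all genes, and 13 of 23 under the hybridization-control scaling. The members have 5 of 7 higher as deposited and 2 of 7 under that scaling, which called 1643 of all 18913 tested probe sets higher.

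The genes whose course over the 9 arrays was most like that of a member were named by Pearson's r of log2(signal + 32), as a description of arrays that fall in 3 groups. For Wnk4 they were Tsc22d3 (r = 0.998), Rell1 (0.997) and Sel1l (0.996). Tsc22d3, a glucocorticoid-induced gene, was under 200 on all incubated arrays and was at least 2.17-fold higher with dexamethasone (adjusted p = 1.16e-07), and still lay below fresh, at -1.14 ± 0.11 (adjusted p = 9.88e-07). For Usp2 (1417168_a_at) they were Pcbp4 (0.997), Prodh (0.996, lower in incubated than in fresh arrays, 325 against 1352, and 877 with dexamethasone) and Sult5a1 (0.991). The course of Nedd4l at 1423269_a_at was most like those of Tmcc3, Aldh18a1 and Pprc1 (0.999, 0.999 and 0.9985), all of which were highest with dexamethasone. For Sgk1 the nearest were Efnb2 (0.953), Hagh (0.951) and Bag4 (0.949), which were all lowest with dexamethasone.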

How the data were processed

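Each of the 9 arrays gave 1 linear intensity value per probe set, which per the labels' description the authors scaled to a target of 500. The sources used here do not name the summarizing software. Per the labels' protocols, RNA went through 2 cycles of in vitro transcription before hybridization. Probe sets were named from the platform annotation: 34945 had 1 symbol, 932 several and 9160 none. Probe sets that reached 200 on at least 3 arrays were tested on log2(signal + 32) with limma 3.58.1 (R 4.3.3; lmFit, eBayes with intensity trend, 1 mean per group over 9 arrays), Benjamini-Hochberg adjusted within each comparison. A group with all arrays under 200 gave a bound against 200. Within-gene pairs were tested the same way on log2 differences per array. The fit was tested on simulated data. All member probe sets are named, with up to 4 genes per list and comparison, those with the smallest adjusted p, some receptors, targets and channel subunits, and the 3 most alike genes for 4 members; the members and lists were chosen with earlier results of these data known. Alternatives were quantile, median and hybridization-control scaling, pseudocounts of 1 and 100, floors, no trend, the compared groups alone, a replicate block, gene means and leaving out each array. Promoters are RefSeq sequences on GRCm38.p6, read with Python 3.11.15 and pandas 2.3.3.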

Additional observations from a re-analysis of the deposited data

How the results depend on the processing

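Among the changes that kept direction and call under all settings run were those of Wnk4, both Usp2 probe sets and the rise of Nedd4l 1457374_at with dexamethasone. Others, on incubation, were those of both Pik3r1 probe sets, Nedd4l 1423269_a_at, Stk39 1419551_s_at and Stk39 1419550_a_at. Over the settings other than leaving out an array, 157 of 163 values of the 15 member probe sets kept direction and call on incubation, 148 of 163 for dexamethasone against incubated and 161 of 163 against fresh. The scaling on hybridization controls turned Sgk1 (0.29), Nedd4l 1457374_at (0.33) and Wnk1 1433676_at (0.19) on incubation, and Nedd4l 1423269_a_at (-0.24), Wnk1 1433676_at (-0.16), Pik3r1 1425514_at (-0.092) and Pik3r1 1438682_at (-0.17) with dexamethasone against incubated, as it shifts all probe sets together. With a floor of 400 the called Nedd4l pairs were 3 on incubation, 1 for dexamethasone against incubated and 2 against fresh, and with pairs of the highest-mean probe set alone 3, 2 and 2, since fewer pairs were tested. The shares of all pairs called under these settings are not given here. Leaving out 1 array gave 12 to 13 called member probe sets on incubation, 10 to 12 for dexamethasone against incubated and 12 to 13 against fresh. Beside these, of all tested probe sets, 6319 to 6600 were higher and 7226 to 7595 lower on incubation. Dexamethasone against incubated the ranges were 4513 to 5064 and 4236 to 4803, and against fresh 6860 to 7152 and 6955 to 7268. Arrays that share a letter did not deviate together in all pairs (r from -0.062 to 0.16), so the letters were not taken as pairs. With a replicate block for the letters the called member probe sets were 13, 13 and 12. Beside these, of all 18913 tested probe sets, 6582 were higher and 7548 lower on incubation. Dexamethasone against incubated they were 5052 and 4759, and against fresh 7130 and 7239. The change of Nedd4l 1437400_at with dexamethasone, -0.42, was called with the block (adjusted p = 0.0151). Signals near 200, as at Nedd4l 1437400_at and 1441305_at, Stk39 1431434_at and incubated Wnk4, lie close to background and limit what their changes show.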
